A study of Mus musculus with 9 samples.

Results

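Bone morphogenetic proteins (BMPs), proteins that bind and block them, and the ID genes that BMP signals switch on were followed in the border zone of the infarcted mouse heart. The 9 genes were taken by symbol from 9 count files that list 53465 genes each: the antagonists and modulators Grem1, Bmper and Chrdl1, the ligands Bmp2, Bmp4, Bmp6 and Bmp7, and the target genes Id1 and Id3. All 9 were present in the files, and 8 of them were among the 13825 genes with enough counts to be tested. The set had been chosen with values of these libraries known, so the levels and differences of its genes are given below as a description without p-values, and tests are given for the other genes of the pathway.

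RNA was sequenced in 9 libraries of heart tissue from NOD-SCID mice, which lack functional T and B cells, and all 3 groups share that strain. The sham group (3 libraries) had sham surgery, the ligation group (3 libraries) had coronary artery ligation, which stops blood flow to a region of heart muscle, and the cell group (3 libraries) had the same ligation and also received an implant of FOXO3-GE-MPCs. The infarct border zone is named as the sampled region in all groups, sham included, while neither the age of the mice nor the time after surgery is given. Nothing says that the libraries of a group came from separate animals, so the p-values measure only the spread between these libraries, which may be technical.

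In the cell group the source names of replicates 2 and 3 carry other FOXO numbers than the titles and treatment fields, and the titles were followed. Sham replicates 1 and 2 share a name stem in their file headers, as do ligation replicates 2 and 3. Every pair of replicates differed by more than sampling noise. Of the pairs with a shared stem, the ligation pair differed least within its group and the sham pair most. Libraries made separately from 1 animal can also differ by more than that noise, so this does not tell whether a stem marks a shared animal. Gene counts per library ranged from 4549268 to 7515052, and 3 counts, taken as the floor of detection, corresponded to 0.375 to 0.639 CPM (counts scaled to a common library size with TMM factors). Cardiomyocyte markers were abundant in every library, with 6 genes summing to 44300 to 45900 CPM in sham, 34100 to 35700 after ligation and 33200 to 33900 with cells.

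BMPs are secreted dimers of the TGF-beta superfamily. They bind complexes of type I and type II receptors, which phosphorylate SMAD1, SMAD5 and SMAD9; these join SMAD4 and activate genes such as Id1 and Id3, whose products hold E-protein transcription factors in inactive dimers. Secreted antagonists, among them gremlin 1, chordin-like proteins and follistatin, bind ligands outside the cell and keep them from their receptors. In the heart the pathway is known for its part in valve, septum and chamber formation, and in the adult for roles in endothelial cells, fibrosis and the response to injury.

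Several of these genes are close relatives, and their coding sequences show how far reads of one could be taken for the other. The most similar ungapped stretches of 90 bases between coding sequences are printed for the ligand pair Bmp2 and Bmp4 and for the target pair Id1 and Id3, from the mm10 genome with GENCODE M21 annotation. Capitals mark the bases that differ within a pair, and each sequence is given 5′ to 3′ on the coding strand.
Bmp2, chr2:133561428-133561517, plus strand: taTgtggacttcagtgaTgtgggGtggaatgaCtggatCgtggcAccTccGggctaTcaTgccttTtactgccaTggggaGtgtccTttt
Bmp4, chr14:46384057-46384146, minus strand: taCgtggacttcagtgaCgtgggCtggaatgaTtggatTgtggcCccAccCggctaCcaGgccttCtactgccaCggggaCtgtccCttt
Id1, chr2:152736519-152736608, plus strand: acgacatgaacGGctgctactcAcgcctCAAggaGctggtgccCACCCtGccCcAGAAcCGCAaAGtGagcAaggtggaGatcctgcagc
Id3, chr4:136144003-136144092, plus strand: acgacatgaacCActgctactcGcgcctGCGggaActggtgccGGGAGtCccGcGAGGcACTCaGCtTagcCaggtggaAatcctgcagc
The Bmp2 and Bmp4 stretches, which lie in the coding sequence of the mature ligand domain, were 84.4% identical with a longest shared run of 14 bases. The ID stretches were 70% identical with a longest shared run of 11 bases. Of all 31-base words in the exons, 0% in Bmp2, Id1, Id3, Bmper and Chrdl1 also occurred in another gene, against 1.17% in Grem1, 2.25% in Bmp7, 3.55% in Bmp4 and 5.2% in Bmp6. Bmp4 overlaps the antisense gene Gm15217 and Bmp6 overlaps Txndc5 on the other strand, and since the strand setting of the counting is not given, reads from those overlaps cannot be told apart.

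Across the set, every ligation library had less Bmp6, Id1 and Id3 and more Bmp2, Bmp4, Bmp7, Bmper and Chrdl1 RNA than every sham library, and every library with implanted cells had more Id1 and Id3 and less Bmp4 RNA than every ligation library. Grem1 was at or under the floor of detection in all 9 libraries. Over all tested genes, 38.2% passed an adjusted p of 0.05 in ligation against sham, 20.1% higher and 18% lower. All 8 tested genes of the set lay outside the range of the sham libraries there (5 higher, 3 lower). So did 47.6% of all genes, 25% higher and 22.6% lower. In the cell group against ligation 9.87% of all genes passed (4.19% higher, 5.69% lower). Groups did not overlap there for 2 genes of the set that were higher and 1 that was lower. The same held for 27.2% of all genes, 13.2% higher and 14% lower. In the cell group against sham 40.9% of all genes passed (21% higher, 20% lower). There 5 higher and 3 lower genes of the set did not overlap, against 49.8% of all genes, 25.4% higher and 24.5% lower. Because the set was chosen on these values, nothing is read from those counts. Which of its genes passed is likewise not reported. The cell group and the sham group are each compared with the same ligation libraries, so the first 2 comparisons share them. In bulk tissue, fewer cells of a type and less RNA per cell cannot be told apart.

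**Figure D1:**
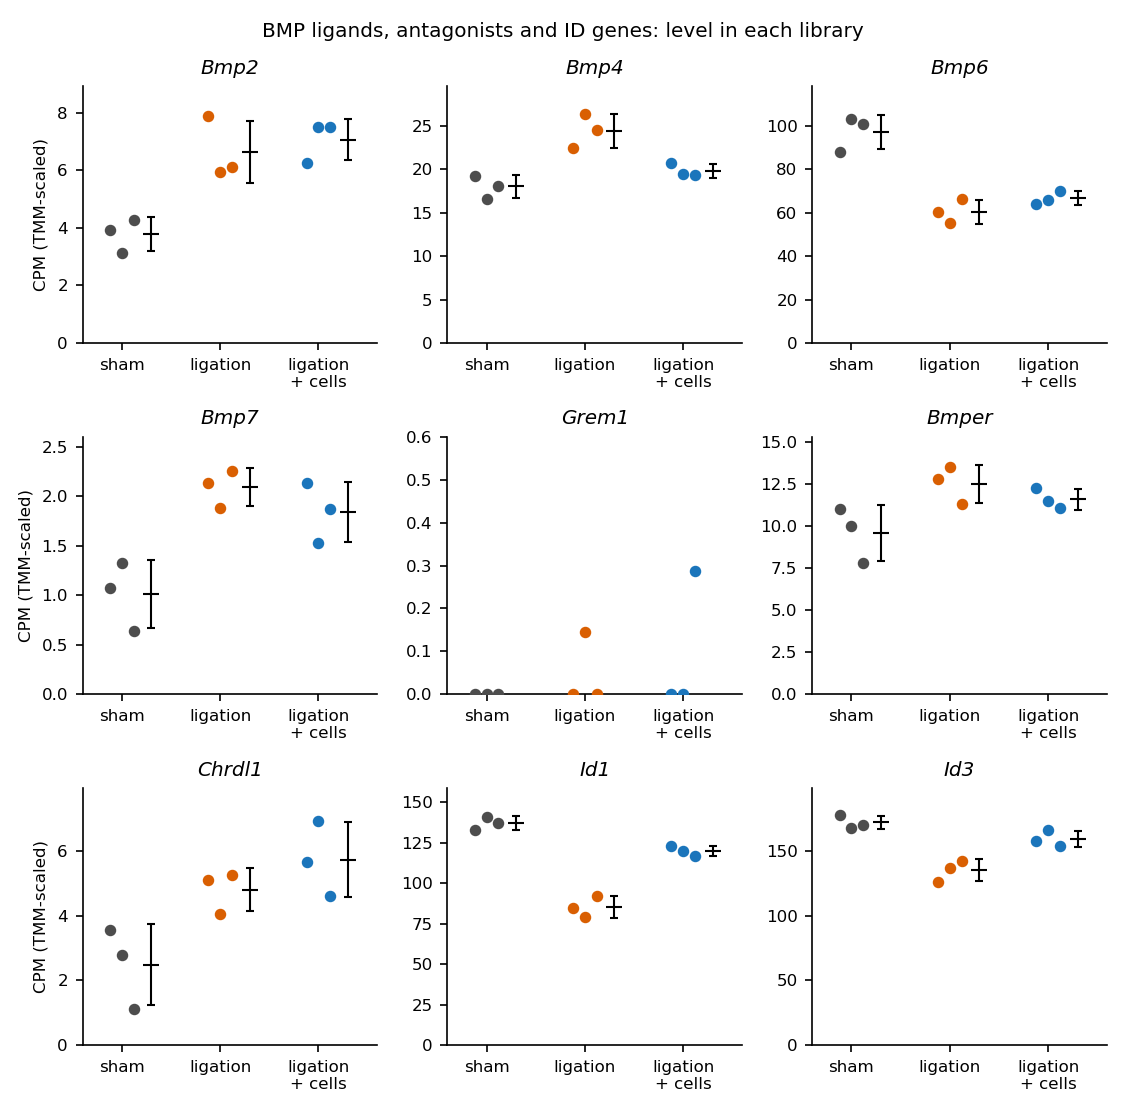
Level of each of the 9 genes in every library, in CPM scaled with TMM factors on a linear axis from 0. Points are libraries (3 per group) and the bars to their right are mean ± SD; no mean is drawn for Grem1, which had 0 to 2 counts per library. Id1 and Id3 are lowest in the 3 ligation libraries, Bmp6 is highest in the 3 sham libraries, and Bmp2 and Bmp7 are lowest in the 3 sham libraries.

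Of the antagonists, Grem1 (gremlin 1, chr2:113746164-113758646, minus strand), a cystine-knot protein that binds BMP2, BMP4 and BMP7, had no counts in sham, 1 count in the ligation libraries together and 2 in the cell group. Its level was 0.145 CPM in ligation replicate 2, 0.288 CPM in cell replicate 3 and 0 in the other 7 libraries. Each of these is at or under the floor of 3 counts, so a difference was not detectable at this depth and no fold is given. The antagonists of the set that were detected were Bmper and Chrdl1.

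Bmper (BMP-binding endothelial regulator, chr9:23223076-23485200, plus strand), which binds BMPs and can dampen or promote their signal, was at 11, 10 and 7.78 CPM in sham replicates 1 to 3. It was at 12.8, 13.5 and 11.3 CPM in ligation and at 12.3, 11.5 and 11.1 CPM in the cell group. Sham was the lowest group and did not overlap with either of the others, but the gap between the highest sham and the lowest ligation library was smaller than the spread within sham. The log2 difference was 0.38 ± 0.16 (SE) for ligation against sham and -0.09 ± 0.16 for the cell group against ligation, which overlapped. Without sham replicate 3 the first was 0.24, and with library totals it was 0.56.

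Chrdl1 (chordin-like 1, chrX:143285674-143394262, minus strand), which binds BMP4 and keeps it from its receptors, was at 3.56, 2.80 and 1.11 CPM in sham. The ligation libraries were at 5.11, 4.05 and 5.25 CPM and those with cells at 5.67, 6.94 and 4.61 CPM. All 6 libraries of the ligated groups lay above all 3 sham libraries, and sham replicate 3 was the lowest library. The log2 difference from sham was 0.96 ± 0.33 (SE) in ligation and 1.22 ± 0.32 with cells. The ligation difference depended on single libraries: it was 0.60 without sham replicate 3 and 1.29 without sham replicate 1. These were its lowest and highest values over all settings.

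Among the ligands, Bmp6 (chr13:38345107-38500302, plus strand), which in the adult is made by endothelial cells and governs hepcidin in the liver, was the most abundant per length. It was at 87.9, 103 and 101 CPM in sham, at 60.3, 55.1 and 66.1 CPM in ligation, and at 63.8, 66.0 and 70.2 CPM with cells. The sham libraries were all higher than the other 6, and the ligation and cell groups overlapped. The log2 difference was -0.68 ± 0.08 (SE) for ligation against sham, 0.14 ± 0.08 for cells against ligation and -0.54 ± 0.08 for cells against sham.

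Bmp4 (chr14:46383520-46390669, minus strand), a ligand that patterns the embryonic heart and is released by endothelium under stress, was at 19.2, 16.6 and 18.1 CPM in sham. It was at 22.4, 26.3 and 24.5 CPM in ligation and at 20.7, 19.4 and 19.3 CPM in the cell group. The order of the groups was sham, cells, ligation, with no overlap between any neighbours, although the lowest library with cells (19.3 CPM) lay next to the highest sham library (19.2 CPM). The log2 difference was 0.45 ± 0.11 (SE) for ligation against sham, -0.31 ± 0.11 for cells against ligation and 0.14 ± 0.12 for cells against sham. The last was 0.30 with library totals in place of TMM, and was as low as 0.09 in other settings.

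Bmp2 (chr2:133552159-133562885, plus strand), the closest relative of Bmp4, was at 3.92, 3.13 and 4.29 CPM in sham. It was at 7.88, 5.93 and 6.13 CPM in ligation and at 6.24, 7.49 and 7.49 CPM with cells. Both ligated groups were above sham without overlap and overlapped with each other. The log2 difference was 0.79 ± 0.24 (SE) for ligation and 0.90 ± 0.23 for cells, each against sham, and 0.11 ± 0.21 between the cell group and ligation. Without sham replicate 2 the difference of ligation from sham was 0.67.

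Bmp7 (chr2:172868012-172940321, minus strand), known in injured organs for opposing TGF-beta, was the scarcest of the 4 ligands, at 1.07, 1.32 and 0.635 CPM in sham. It was at 2.13, 1.88 and 2.25 CPM in ligation and at 2.13, 1.53 and 1.87 CPM with cells. The sham libraries lay below the other 6, but the level was close to the floor and the error large. The log2 difference was 1.05 ± 0.42 (SE) for the ligation group and 0.86 ± 0.42 for cells, each against sham. No sham library reached the 1.48 CPM that the filter on low counts asks of 3 libraries. Bmp7 thus entered the tests through the ligated groups, where it is higher. Over 20 other settings the ligation difference ranged from 0.795 to 1.29.

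Set on one scale by dividing by exon length, Bmp6 was at 24.9 ± 2.05 CPM per kb (SD, n = 3) in sham, Bmp4 at 8 ± 0.576, Bmp2 at 1.06 ± 0.166 and Bmp7 at 0.251 ± 0.086. That order, Bmp6, Bmp4, Bmp2, Bmp7, was the same in all 3 groups with no overlap between neighbours. Bmp6 made up 72.7% ± 2.99 of the 4 ligands' summed CPM per kb in sham, 53.9% ± 3.01 after ligation and 60.3% ± 1.49 with cells. Bmp4 made up 23.5% ± 2.63, 37.8% ± 3.55 and 31.1% ± 1.82, and Bmp2 3.11% ± 0.512, 6.52% ± 1.18 and 7.01% ± 0.633. Among these 4 ligands alone, Bmp6 thus made up a smaller share of the RNA, and Bmp4 and Bmp2 a larger one, in ligated than in sham hearts. The sum of the 4 was 34.2 ± 1.51 CPM per kb in sham, 28.8 ± 1.19 in ligation and 28.4 ± 0.692 with cells. Other ligands are left out of these shares: in ligation Gdf6 was at 2.03 CPM per kb and Bmp2 at 1.87.

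**Figure D2:**
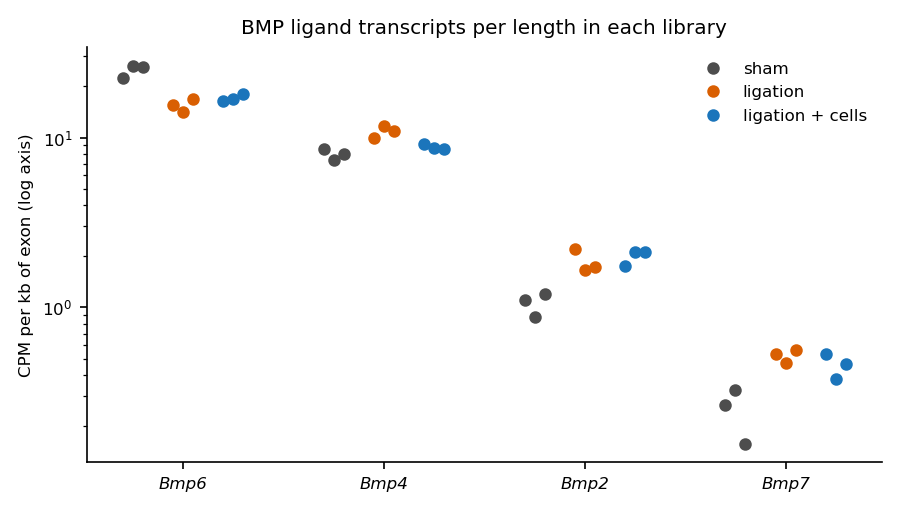
CPM per kb of exon of the 4 ligands in each library, on a log axis, with 3 points per group. The ligands keep the order Bmp6, Bmp4, Bmp2, Bmp7 in every group, with group means from 24.9 (Bmp6 in sham) down to 0.251 CPM per kb (Bmp7 in sham), and ligation narrows the gap between Bmp6 and Bmp4.

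Both target genes had their lowest levels in the ligation group. Id1 (inhibitor of DNA binding 1, chr2:152736251-152737410, plus strand), a direct SMAD target that is strong in endothelial cells, was at 133, 141 and 137 CPM in sham. It was at 84.6, 78.9 and 92.0 CPM in ligation and at 123, 120 and 117 CPM with cells. The 3 groups did not overlap: every ligation library was below every library with cells, and those were below every sham library. The log2 difference was -0.68 ± 0.06 (SE) for ligation against sham, 0.49 ± 0.06 for cells against ligation and -0.19 ± 0.06 for cells against sham. The last difference shrank to -0.03 with library totals in place of TMM.

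Id3 (chr4:136143497-136145755, plus strand), whose product acts on the same E proteins, was at 178, 168 and 170 CPM in sham, at 126, 137 and 142 CPM in ligation, and at 158, 166 and 154 CPM with cells. The order of the groups was that of Id1, again without overlap, over a narrower range. The log2 difference was -0.35 ± 0.06 (SE) for ligation against sham, 0.24 ± 0.06 for cells against ligation and -0.11 ± 0.06 for cells against sham. The difference of cells from ligation ranged from 0.187 to 0.275 over the other settings. With library totals the difference of ligation from sham shrank to -0.16 and the sign of cells against sham turned (0.05). Per kb of exon, Id1 was at 118 ± 3.63 CPM (SD, n = 3) and Id3 at 96.0 ± 2.92 CPM in sham, while in ligation Id1 (73.4 ± 5.68) and Id3 (75.3 ± 4.72) did not differ beyond their spread.

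**Figure D3:**
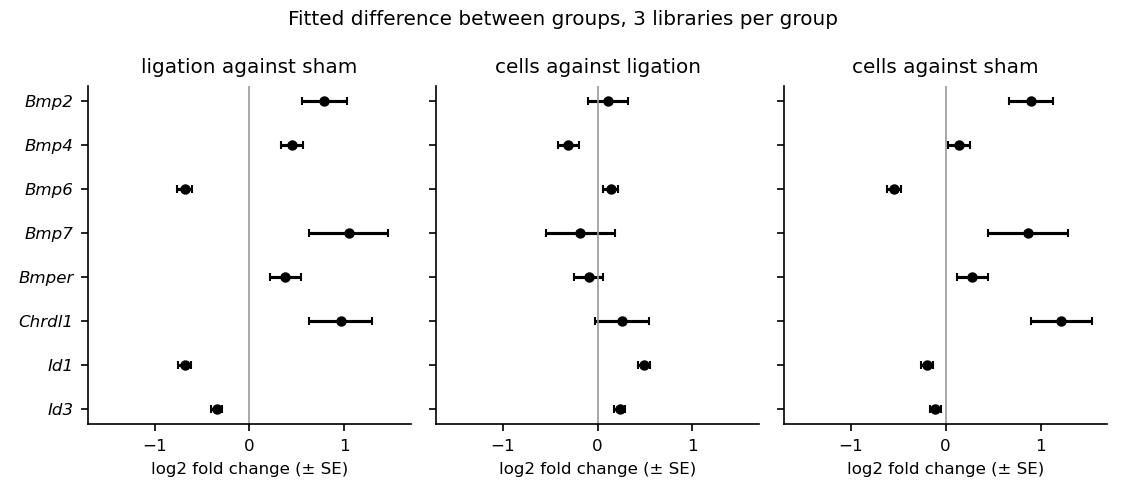
Log2 fold change with its standard error from the fit over all genes, for the 8 tested genes in each of the 3 comparisons, 3 libraries per group. Bmp6, Id1 and Id3 lie left of 0 and the other 5 right of it in ligation against sham, and Id1 (0.49) and Id3 (0.24) lie to the right in cells against ligation.

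Endothelial markers were lower after ligation, as were Bmp6, Id1 and Id3, and so were 4 of 6 mural and 4 of 6 cardiomyocyte markers. Of the cardiomyocyte markers 1, Ryr2, rose, from 655 to 840 CPM. The 7 endothelial marker genes summed to 2050 to 2160 CPM in sham, 1350 to 1430 in ligation and 1470 to 1510 with cells; 7 of 7 fell after ligation. In cells against ligation 2 of 7 rose and 5 did not pass, with a median log2 difference of 0.06. Per 1000 CPM of those markers, Bmp6 was at 46.4 ± 2.98 (SD, n = 3) in sham, 43.4 ± 3.70 in ligation and 44.8 ± 2.74 with cells, which overlapped. On the same measure Id1 was at 65.5 ± 0.480, 61.1 ± 4.37 and 80.5 ± 1.15, so that the cell group was above both others without overlap. Id3 was at 82.3 ± 4.60, 96.7 ± 3.46 and 107 ± 4.20 per 1000 CPM of endothelial markers, lowest in sham. The part of endothelial cells in these differences was not tested.

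Markers of other cell types also differed between the groups. After ligation 6 of 6 macrophage markers (495 to 553 CPM summed in sham, 993 to 1010 in ligation) and 6 of 6 mesothelial markers (33.0 to 44.3 against 228 to 270 CPM) rose, as did 3 of 3 erythroid markers (814 to 865 against 1390 to 1510 CPM) and 3 of 4 tested chondrocyte markers (22.8 to 28.6 against 275 to 294 CPM over 5 genes). Most of the rise in the chondrocyte sum was Comp, at 16.4 CPM in sham and 267 in ligation. Chad was lower in ligation (1.38 against 0.402 CPM) and did not pass. Of 5 activated fibroblast markers 4 rose and 1, Acta2, fell (403 to 433 against 689 to 706 CPM summed), and 4 of 6 mural markers fell (1450 to 1490 against 1020 to 1050 CPM). The mesothelial Upk1b and the activated fibroblast Cthrc1 reached the filter's level in no sham library. Both entered the tests through the ligated groups, where they are high. Of 6 fibroblast markers 3 rose and 1 fell (1690 to 1740 against 2170 to 2250 CPM). Against ligation, the cell group had lower levels of 6 of 6 macrophage markers (408 to 424 CPM), of 3 of 3 erythroid markers (627 to 647 CPM) and of 3 of 6 mesothelial markers (187 to 190 CPM), and none of 6 fibroblast markers passed. The chondrocyte markers summed to 271 to 275 CPM with cells, and the 1 of 4 that passed as higher, Chad, entered the tests only through libraries outside the ligation group, where none reached the filter's level. Of the activated fibroblast markers Postn was lower with cells than in ligation and Acta2 higher, and the other 3 did not pass (638 to 673 CPM summed). Skeletal muscle markers summed to 7.52 to 10 CPM in ligation, against 0.890 to 2.54 in sham and 1.13 to 1.58 with cells; Myh4 had no counts in sham or with cells. The part of these cells in the results was not tested.

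Among the other genes of the pathway, 58 in 7 lists by role, 45 had enough counts to be tested. In ligation against sham 20 rose and 5 fell, 55.6% of those tested against 38.2% of all genes, with a median log2 difference of 0.17 against 0.01 over all genes. In cells against ligation 3 rose and 5 fell (17.8%, against 9.87% of all genes), with a median of -0.06 against 0.00. In cells against sham 21 rose and 5 fell (57.8%, against 40.9%), with a median of 0.23 against -0.01. The lists had been written with earlier results of these libraries known and are not independent evidence of a direction.

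**Figure D4:**
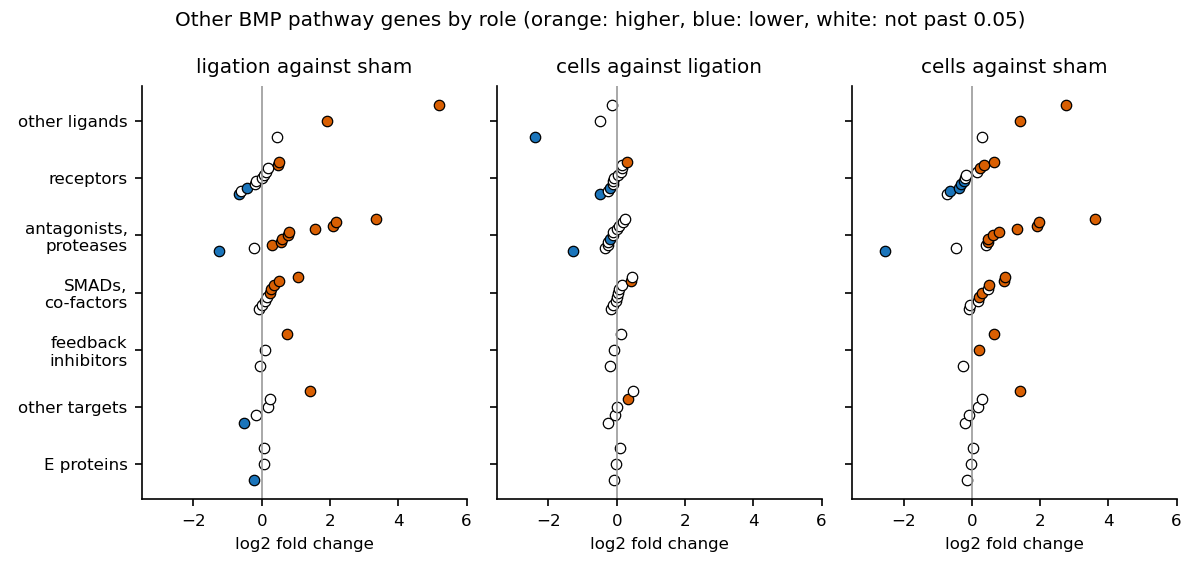
Log2 fold change of the tested pathway genes outside the set of 9, by role, in the 3 comparisons. Each point is a gene, orange where it rose and blue where it fell at an adjusted p under 0.05, white otherwise; Bmp10 against sham is drawn at the log2 of its count ratio. In ligation against sham 9 of 11 antagonists and modulators lie to the right as orange points and Sost alone is blue.

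Most of the other antagonists, modulators and proteases rose after ligation: of 11 tested among 15, 9 rose and 1 fell (90.9%, against 38.2% of all genes), with a median log2 difference of 0.76 against 0.01 over all genes. Fst (follistatin, a binder of activins and, more weakly, of BMPs) was at 0.356, 0.659 and 0.635 CPM in sham, at 7.03, 4.49 and 6.25 in ligation and at 5.53, 8.18 and 7.20 with cells. It rose by a log2 difference of 3.35 ± 0.386 (SE) after ligation, and the 2 ligated groups overlapped (log2 difference 0.25 ± 0.241). No sham library of Fst, or of Tll1 below, reached the 1.48 CPM that the filter on low counts asks of 3 libraries, so both entered the tests through the ligated groups, where they are high. No p-value is therefore given for either, although both are counted among the 9 that rose. Fstl3, a follistatin-like inhibitor of activins, went from 2.87 ± 0.839 CPM (SD, n = 3) to 11.8 ± 2.3 and 11.1 ± 0.566, but 46.7% of its 31-base words occur in another gene and it overlaps Prss57, so its counts are uncertain. Nbl1 (DAN, a secreted protein that binds BMPs) was at 42.7, 39.7 and 39.1 CPM in sham, 127, 116 and 114 in ligation and 106, 102 and 99.0 with cells. It rose after ligation by 1.55 ± 0.0699 (edgeR adjusted p = 4.4e-13). With cells it fell by 0.21 on the log2 scale (SE 0.063, edgeR adjusted p = 0.0367), a call lost with DESeq2 (adjusted p = 0.0813) and without any of 5 of the 6 libraries compared.

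Sost (sclerostin, a secreted WNT antagonist of the same protein family) was the single gene of this list that fell after ligation. It was at 9.61, 7.41 and 6.51 CPM in sham, at 3.62, 3.62 and 2.63 in ligation and at 0.993, 1.66 and 1.30 with cells, with no overlap between groups. It fell by 1.27 on the log2 scale after ligation (SE 0.268, edgeR adjusted p = 0.000767). With cells it fell by a further 1.28 on the log2 scale (SE 0.344, edgeR adjusted p = 0.0193), which was lost without ligation replicate 2, cell replicate 1 or cell replicate 3 (adjusted p of 0.0582 to 0.0895).

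The proteases that cleave chordin rose too. Tll1 averaged 0.952 CPM in sham, and 4.35 and 3.64 CPM in the ligation and cell groups (log2 difference from sham 2.19 ± 0.375, SE, in ligation). Bmp1, a metalloprotease despite its name, went from 61.2 ± 5.03 CPM (SD, n = 3) to 91.8 ± 3.92 and 85.6 ± 4.09. Chordin itself (Chrd) rose after ligation by 0.76 ± 0.187 (edgeR adjusted p = 0.00287), from 5.82 to 9.96 CPM, and Fstl1, Twsg1 and Crim1 were the other risers. Noggin (Nog) was at 0.142 to 1 CPM in all libraries and was not tested.

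**Figure D5:**
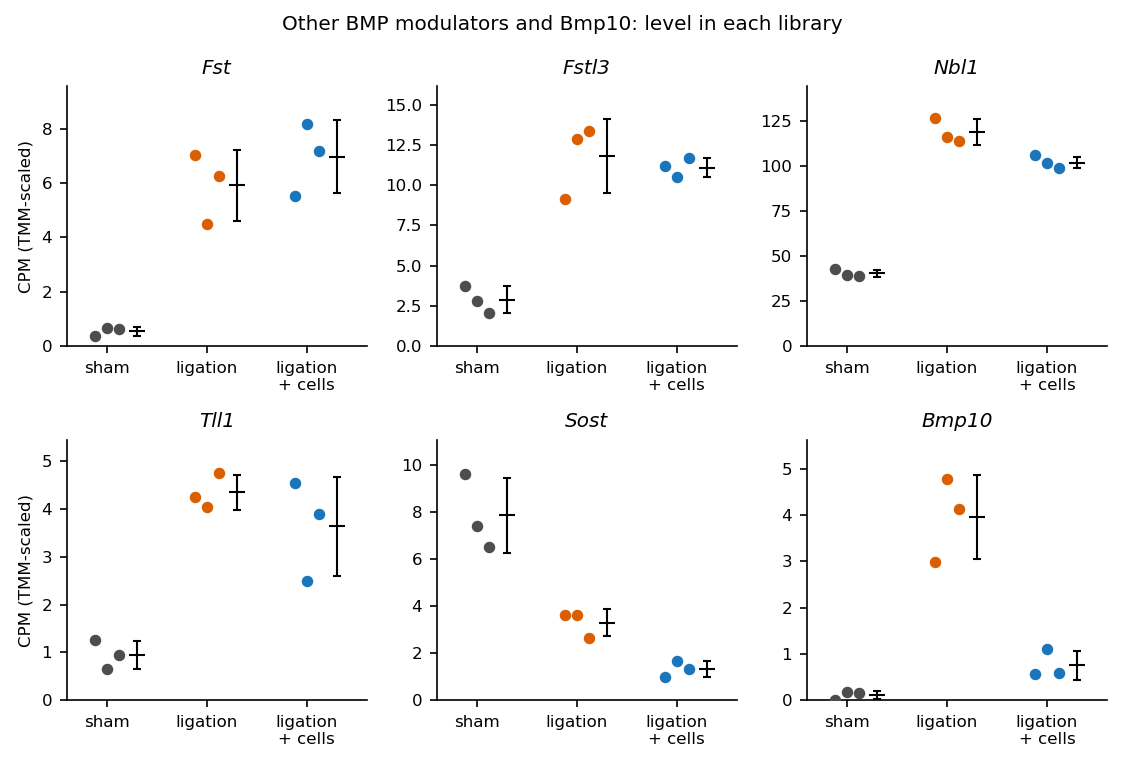
Level in each library of 5 antagonists, modulators and proteases outside the set of 9 and of the ligand Bmp10, in CPM on a linear axis from 0, with mean ± SD of 3 libraries per group. Fst, Fstl3, Nbl1 and Tll1 are lowest in the 3 sham libraries, Bmp10 is highest in the 3 ligation libraries (2.98 to 4.78 CPM), and Sost is lower in ligation than in sham and lowest with cells.

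Of 10 other ligands 3 were tested. Bmp10, a ligand of the endothelial receptor ALK1 made mainly by atrial muscle, had 2 counts over the 3 sham libraries, 80 over those of ligation and 16 over those with cells. Its levels were 0, 0.165 and 0.159 CPM in sham, 2.98, 4.78 and 4.13 in ligation and 0.567, 1.11 and 0.576 with cells, without overlap. The ratio of ligation to sham was 36.7, with an exact 95% counting interval of 9.83 to 308, and the log2 difference of cells from ligation was -2.39 ± 0.410 (SE). Bmp10 passed the filter on low counts only through the ligation libraries, where it is high, so no p-value is given for it, although it is counted among the pathway genes that passed in all 3 comparisons. Its call in cells against sham was lost without sham replicate 1 and without cell replicate 2. Bmp10 is also 1 of 5 atrial markers: after ligation it was higher, as was Nppa, while the other 3 fell, and with cells, where Bmp10 was lower, those 3 rose. The atrial sum was 474 to 565 CPM in sham, 845 to 1610 in ligation and 1570 to 2180 with cells, and its part in the Bmp10 result was not tested.

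Gdf6, a ligand of skeletal patterning, was at 1.07, 2.14 and 2.38 CPM in sham, 8.74, 5.64 and 7.13 in ligation and 4.82, 5.41 and 4.75 with cells. It rose after ligation by 1.90 ± 0.299 (SE, edgeR adjusted p = 3.5e-05) and was lower with cells by -0.50 ± 0.247, which did not pass. Gdf10 did not pass in any comparison, and the remaining 7 ligands, among them Bmp5 and the circulating ALK1 ligand Gdf2 (BMP9), were not tested, with no library above 1.94 CPM.

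Of 11 tested receptors and co-receptors, 2 rose and 2 fell after ligation, a share of 36.4% that is near the 38.2% of all genes. In cells against ligation 1 rose and 2 fell (27.3%, against 9.87% of all genes). In cells against sham 3 rose and 4 fell (63.6%, against 40.9%). The type I receptors Bmpr1a and Acvr1 rose after ligation, Bmpr1a from 55.5 ± 2.18 CPM (SD, n = 3) to 78.6 ± 3.91 and 86.6 ± 8.05 with cells, and Acvr1 from 19.5 to 26.9 and 25.1 CPM. Hjv (hemojuvelin, the BMP6 co-receptor of muscle and liver) was at 177, 184 and 188 CPM in sham, 124, 112 and 107 in ligation and 150, 131 and 145 with cells. It fell after ligation by 0.68 on the log2 scale (SE 0.0658, edgeR adjusted p = 5e-08) and rose with cells against ligation by 0.31 ± 0.066 (edgeR adjusted p = 0.00343), with the 3 groups in the order of Id1. Endoglin (Eng), the endothelial co-receptor of BMP9 and BMP10, fell after ligation from 566 to 419 CPM (log2 difference -0.43 ± 0.0574, edgeR adjusted p = 4.31e-06) and was at 366 CPM with cells, below ligation by -0.20 ± 0.0576 with an overlap (edgeR adjusted p = 0.0345). The last call was lost without ligation replicate 2 or 3, without cell replicate 2 or 3 and with libraries of a shared header stem summed (adjusted p of 0.0858 to 0.179).

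Rgma, a GPI-anchored co-receptor, averaged 29.2 and 32.7 CPM in the sham and ligation groups, which did not differ past the threshold (log2 difference 0.17 ± 0.0975), and fell with cells to 23.3 CPM (-0.49 ± 0.0982, edgeR adjusted p = 0.00198). The type II receptor Bmpr2 was at 135, 145 and 158 CPM in sham, ligation and cells and passed only in cells against sham (0.23 ± 0.0573, edgeR adjusted p = 0.00263). Acvrl1 (ALK1) was at 101, 89.9 and 85.7 CPM and likewise fell only in that comparison by the threshold (-0.24 ± 0.0655, edgeR adjusted p = 0.0068, but 0.381 with library totals), so the difference of those effects from ligation against sham was not tested.

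Of 9 SMAD transducers and co-factors 5 rose after ligation and none fell (55.6%, against 38.2% of all genes). The receptor-activated Smad1, Smad5 and Smad9 did not pass in any comparison, with log2 differences from sham of -0.09 ± 0.106, 0.16 ± 0.0798 and 0.02 ± 0.344 in ligation. Smad4, their shared partner, was at 46.6, 53.2 and 48.9 CPM in sham, 96.1, 104 and 111 in ligation and 100, 96.0 and 96.1 with cells, a rise after ligation of 1.07 ± 0.0724 (SE, edgeR adjusted p = 2.42e-10). Skil (SnoN, a SMAD co-repressor) was at 33.3, 33.8 and 30.3 CPM in sham, 45.8, 46.6 and 46.4 in ligation and 64.5, 58.7 and 64.1 with cells. It rose after ligation by 0.51 ± 0.0802 (edgeR adjusted p = 3.19e-05) and again with cells by 0.43 ± 0.0731 (edgeR adjusted p = 0.000409), the one gene of its list that passed there. The ubiquitin ligases Smurf1 and Smurf2, which mark SMADs for breakdown, and the co-repressor Ski were the other 3 that rose.

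The inhibitors that BMP signals induce as feedback gave 1 call after ligation among 3 tested (33.3%, against 38.2% of all genes). They gave none in cells against ligation, where 9.87% of all genes passed, and 2 in cells against sham (66.7%, against 40.9%). All of these calls were higher. Smad6, which blocks BMP receptors from inside the cell, was at 48.6 ± 8.57 CPM (SD, n = 3) in sham, 46.9 ± 5.47 in ligation and 40.7 ± 1.60 with cells and did not pass in any comparison. Bambi, a decoy receptor without a kinase, was at 19.9, 17.1 and 19.4 CPM in sham, 29.6, 29.4 and 34.3 in ligation and 28.2, 30.0 and 31.1 with cells. It rose after ligation by 0.73 ± 0.108 (SE, edgeR adjusted p = 1.47e-05), and the ligated groups overlapped. Smad7, which blocks TGF-beta and BMP receptors alike, was at 55.8, 58.9 and 64.2 CPM in the 3 groups and passed in cells against sham (0.20 ± 0.0683, edgeR adjusted p = 0.0224), a call lost with DESeq2 (adjusted p = 0.0818), without sham replicate 2 (0.109), sham replicate 3 (0.0502) or cell replicate 1 (0.0837), and with libraries of a shared header stem summed (0.0586).

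Of 5 other BMP-responsive transcription factors tested, 1 rose, 1 fell and 3 did not pass after ligation, a called share of 40% that is near the 38.2% of all genes. Id4 (1.91 ± 0.506 CPM in sham, 5.15 ± 1.72 in ligation, 5.10 ± 0.453 with cells; SD, n = 3) rose after ligation by 1.42 ± 0.33 (edgeR adjusted p = 0.00181), but it overlaps 2 genes on the other strand. Id2 (means of 30.2, 34.2 and 28.5 CPM by group), Atoh8 (22.7, 26.8 and 25.9) and Msx1 (9.52, 8.34 and 11.6) did not pass in any comparison. Hey1, a NOTCH and BMP target of endothelium, was at 36.7, 43.2 and 36.2 CPM in sham, 26.2, 27.2 and 26.6 in ligation and 33.8, 33.6 and 34.0 with cells, in the order of Id1. It fell after ligation by 0.53 on the log2 scale (SE 0.0922, edgeR adjusted p = 9.7e-05) and rose with cells by 0.34 ± 0.0919 (edgeR adjusted p = 0.0211), the latter lost with DESeq2 (adjusted p = 0.0682) and without any of 5 of the 6 libraries compared. Per 1000 CPM of endothelial markers Hey1 was at 18.5 ± 1.35, 19.1 ± 0.410 and 22.7 ± 0.390, highest with cells. Of the E proteins bound by ID proteins, Tcf4 fell after ligation from 186 to 157 CPM (-0.24 ± 0.0631, edgeR adjusted p = 0.00443), which was lost with library totals (adjusted p = 0.512), and Tcf3 and Tcf12 did not pass.

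For each of the 8 tested genes, the genes with the most similar profile were sought among 13801 genes, by the root mean square difference of centred log2(CPM + 0.5) values over the 9 libraries, as a description. For Id1 the closest was Cavin2 (0.0569; means of 325, 206 and 279 CPM in sham, ligation and cells), a coat protein of caveolae, followed by Immp2l and G0s2. For Id3 they were Aamdc (0.0509), Hic1 and the endothelial junction gene Jam2, and for Bmp6 Mrps18a (0.0627), Kdm6b and Hint3. Bmp4 was closest to Tmed3 (0.0592), Igsf8 and Tmem43, Bmp2 to Zfp641 (0.0698), Snx7 and Baz1a, and Bmper to Fbxl16 (0.0717), Pdlim7 and Rpusd1. The scarcer Bmp7 (Aff3, 0.0831, then Cercam and Jmjd8) and Chrdl1 (Fhad1, 0.199, then Srgap3 and Shc4) had less similar neighbours.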

How the data were processed

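The authors deposited unnormalized read counts for each gene, in a separate file for every library. Per the labels' protocols, the RNA came from a TRIzol extraction and the NEBNext Ultra RNA kit was used for the libraries. The build is mm10 per the submitters' processing notes; the aligner, counter, strand setting and annotation release are not given in the sources used here. Lines that name no gene were left out: reads in no feature were 4.14% to 4.91% and ambiguous reads 8.09% to 8.72%.

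Symbols and positions came from GENCODE M21 (53274 of 53465 IDs), and all 58 pathway genes were matched; 1 further gene of the planned lists is not reported here and is left out of their counts. Counts were analysed in R 4.3.3 with edgeR 4.0.16: filterByExpr, TMM scaling, 1 quasi-likelihood fit of all 9 libraries by group (6 residual degrees of freedom), two-sided tests, and Benjamini-Hochberg adjustment over 13825 genes with a threshold of 0.05. The SE of a log2 fold change was obtained from its size and its F statistic (size over root F).

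The 9 genes and all lists were chosen with earlier results of these data known. Pathway genes were named, up to 3 per list and comparison, by the largest change among those past the threshold with a mean of at least 1 CPM and groups that did not overlap; others are named to complete a list or a count, and were chosen after their values were seen. As alternatives, other scalings and filters, limma-voom (limma 3.58.1), DESeq2 1.42.0, fits of 2 groups, a replicate block, fits without mitochondrial genes and fits without each library in turn were run. On simulated data of ligation against sham with 13825 genes, 150 of 200 genes changed by 1 on the log2 scale were recovered (75%), with 12 unchanged genes called; 2 genes were called when none was changed. Floors and intervals cover counting error only, since reads carry no molecular identifiers. Reads from the implanted cells were not analysed here.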

Additional observations from a re-analysis of the deposited data

Results flagged for a closer look

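Reads that fell in no annotated gene, which enter no comparison, made up a mean of 4.75% in the ligation libraries, 4.21% in the sham libraries and 4.22% in those with cells.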

How the results depend on the processing

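With library totals in place of TMM the median gene shifted on the log2 scale by 0.188 in ligation against sham, by -0.0299 between cells and ligation and by 0.158 in cells against sham, and the share of higher calls went from 52.7% to 78.7%, from 42.4% to 32.2% and from 51.2% to 73.1%. Mitochondrially encoded genes took 19.1% to 19.9% of counts in the sham libraries, against 12.5% to 13.9% after ligation and 14.3% in the cell group; in TMM fits without them 26, 8 and 27 pathway genes passed, against 25, 8 and 26 with them. Pathway genes past the threshold with library totals numbered 34 (30 higher, 4 lower) in ligation against sham, 8 between cells and ligation and 28 in cells against sham, and log2 differences became 0.64 for Bmp4, -0.49 for Bmp6, -0.50 for Id1 and -0.16 for Id3 in ligation against sham, and Id3 turned sign in cells against sham (0.05). Pathway genes past the threshold without single libraries numbered 25 to 26 in ligation against sham, 4 to 8 in cells against ligation (4 without ligation replicate 2 or without cell replicate 3, against 8 with all) and 25 to 27 in cells against sham; over all genes the counts were 4482 to 5459, 951 to 1398 and 5055 to 5746. Summing libraries with a shared header stem, an alternative chosen after seeing the data, gave 25, 7 and 26 pathway genes. The cause of these changes was not tested. Low counts limit what can be said of Grem1, Bmp7 and Chrdl1.

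With the replicate number as a block, 25, 8 and 26 pathway genes and 5134, 1230 and 5511 of all genes passed, against 5277, 1365 and 5661 without it. Deviations of same-numbered libraries correlated at -0.123 to 0.144 over 9414 genes, and 4 of 9 libraries correlated best with their own number, so the numbers were not taken as a pairing.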
